A study of Mus musculus with 9 samples.

Results

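The HMGA genes measured here were Hmga1, Hmga1b and Hmga2, 3 of the 26202 genes listed for the series. They were taken by gene symbol, and Hmga1 had been chosen because its level was higher with both treatments, so its difference from control is given as a description and carries no test. Hmga1b shares most of its sequence with Hmga1 and is treated in the same way, while Hmga2 was tested. All 3 genes reached the expression minimum, a mean level of 1 CPM (count per 1000000 counts) over the libraries, as did 12868 genes in total, called expressed here.

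The cells were ATDC5, a chondrogenic mouse line derived from a teratocarcinoma and used as a culture model of cartilage formation. The study asked whether acetate, to which ethanol is oxidised in the body, could account for actions of ethanol on bone and on chondrocyte differentiation. It comprised 3 control, 3 acetate and 3 ethanol libraries of polyadenylated RNA. All 3 groups were grown in DMEM/F-12 with 5% fetal bovine serum, then supplied with insulin-transferrin-selenium, with beta-glycerophosphate at 10 mM and with sodium ascorbate at 50 µg/mL, and the acetate or ethanol exposure was the labelled difference between them. How much acetate or ethanol was given, and for how long, is not given in the sources used here. The labels do not say whether the 3 libraries of a group came from separate cultures, so p-values measure the spread between these libraries, which may be technical. ATDC5 is 1 clonal line, and no other cells were examined.

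HMGA proteins are small chromatin proteins that bind the minor groove of AT-rich DNA through short AT-hook motifs. They have no enzymatic activity of their own and act by bending DNA, displacing linker histone H1 and helping transcription factors to assemble. They are abundant in embryonic, dividing and transformed cells and scarce in most adult tissues. Hmga1 encodes the splice forms HMGA1a and HMGA1b. Hmga2, expressed in embryonic mesenchyme, is disrupted in the small-bodied pygmy mouse, and its human counterpart is rearranged in benign mesenchymal tumours such as lipomas and pulmonary chondroid hamartomas. The let-7 microRNAs repress Hmga2 through its 3′ UTR, and the RNA-binding proteins LIN28A and LIN28B block let-7 maturation.

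Hmga1 (ENSMUSG00000046711.16) lies at chr17:27556497-27563674 on the plus strand of GRCm38. Hmga1b (ENSMUSG00000078249.5) is a separate locus at chr11:120762794-120764419 on the plus strand, annotated as 1 exon, and despite its name it is not the HMGA1b splice form. Its coding sequence is shown because it limits how the first 2 genes can be told apart. The coding sequence of transcript Hmga1-216, spread over exons within chr17:27559569-27562491, and that of Hmga1b-201, at chr11:120762889-120763212 within its single exon, were identical over all 324 bases, with 0 mismatches. Bases 1 to 240 of each, counted from the start codon, are printed in lower case throughout, since no base differs (GENCODE M21, GRCm38).
Hmga1-216 coding: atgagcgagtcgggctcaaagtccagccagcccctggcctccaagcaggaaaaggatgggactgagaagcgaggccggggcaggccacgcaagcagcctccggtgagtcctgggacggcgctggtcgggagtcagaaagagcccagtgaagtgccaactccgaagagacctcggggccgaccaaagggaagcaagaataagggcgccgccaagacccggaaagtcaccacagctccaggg
Hmga1b-201 coding: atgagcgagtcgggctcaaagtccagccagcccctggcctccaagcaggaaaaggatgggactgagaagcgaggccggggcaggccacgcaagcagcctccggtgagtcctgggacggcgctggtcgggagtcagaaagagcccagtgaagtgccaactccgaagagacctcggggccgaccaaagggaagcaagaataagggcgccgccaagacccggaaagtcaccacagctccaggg

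Over whole transcripts, Hmga1-216 and Hmga1b-201 differed by 3 mismatches and 103 gap positions, and the longest identical run was 656 bases. Of all 100-base windows of Hmga1-201, 69.6% also occurred in Hmga1b, and 78.8% of those of Hmga1b-201 occurred in Hmga1. A read that falls in such a window cannot be placed from its sequence alone. Hmga2-201 shared 0 of its 100-base windows and 1.4% of its 50-base windows with transcripts of other annotated genes. Hmga2-ps1, a transcribed pseudogene of Hmga2, was not matched to that annotation, so its sharing of windows was not examined. The coding sequence of Hmga2-201 was 64.2% identical to that of Hmga1-201 at aligned positions.

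Matches to the let-7 seed are shown because their number differs between Hmga2 and the other two transcripts. Capitals mark bases 2 to 8 of the microRNA, its seed, and in the transcripts the CTACCTC complementary to them. The microRNA sequence is from RefSeq, on GRCm38.p6, and the transcript sequences are from GENCODE M21, on GRCm38.
mmu-let-7a-5p: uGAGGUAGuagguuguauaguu
Hmga2 let-7 seed match 1: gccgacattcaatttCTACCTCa
Hmga2 let-7 seed match 2: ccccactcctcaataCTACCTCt
Hmga2 let-7 seed match 3: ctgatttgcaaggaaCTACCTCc
Hmga2 let-7 seed match 4: aatcaaaacacactaCTACCTCt
Hmga1 let-7 seed match 1: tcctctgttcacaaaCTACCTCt
Hmga1b let-7 seed match 1: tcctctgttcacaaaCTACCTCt

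The Hmga2 windows lie on the minus strand at chr10:120364224-120364246, chr10:120362987-120363009, chr10:120362549-120362571 and chr10:120361691-120361713, all in the 3′ UTR of Hmga2-203. The single Hmga1 window lies at chr17:27563277-27563299 and the Hmga1b window at chr11:120763998-120764020, both on the plus strand and in the 3′ UTR. The printed Hmga1 and Hmga1b windows had the same letters. Of 11946 expressed genes with an annotated 3′ UTR, 10.5% held at least 1 such match in the longest coding transcript, 1.31% held at least 2, and 8 genes, Hmga2 among them, held at least 4. A match is a sequence description, and let-7 itself was not measured in these libraries.

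The promoters of the 3 loci, 250 bases before to 50 after the annotated start, are shown because the near-identical copies Hmga1 and Hmga1b have different start regions. The letters are from RefSeq on GRCm38.p6, each on the gene's strand, and 1 of the 2 promoters listed for Hmga1 is printed. Capitals mark every match, on either strand, to any of 5 motifs. The GC box was searched as GGGCGG, and the AP-1 site, bound by FOS and JUN proteins, as TGACTCA. The E-box, bound by MYC, was searched as CACGTG. The other two were the TATA box as TATAAA and the CCAAT box by the letters of its name. Matches that overlap or touch run together.
Hmga1 promoter: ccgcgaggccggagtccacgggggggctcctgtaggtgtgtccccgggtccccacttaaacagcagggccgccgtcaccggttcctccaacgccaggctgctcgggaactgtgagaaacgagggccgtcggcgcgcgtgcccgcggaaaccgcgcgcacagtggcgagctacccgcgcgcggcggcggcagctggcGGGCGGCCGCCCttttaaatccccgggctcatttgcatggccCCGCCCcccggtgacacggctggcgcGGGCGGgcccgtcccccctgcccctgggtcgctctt
Hmga1b promoter: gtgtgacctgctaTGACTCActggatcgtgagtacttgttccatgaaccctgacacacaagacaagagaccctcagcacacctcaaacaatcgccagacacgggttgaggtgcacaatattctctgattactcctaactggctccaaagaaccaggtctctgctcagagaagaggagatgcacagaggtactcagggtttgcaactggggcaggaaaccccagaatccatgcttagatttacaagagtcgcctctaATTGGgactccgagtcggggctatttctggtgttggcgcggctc
Hmga2 promoter: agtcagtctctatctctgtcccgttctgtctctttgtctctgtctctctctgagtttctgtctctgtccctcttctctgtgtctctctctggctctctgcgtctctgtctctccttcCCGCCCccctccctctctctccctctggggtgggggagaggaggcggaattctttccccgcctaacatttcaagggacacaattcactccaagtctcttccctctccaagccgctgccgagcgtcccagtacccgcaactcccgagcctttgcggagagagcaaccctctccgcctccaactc

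The Hmga1 window, chr17:27556324-27556623, was 74.0% G or C and held 40 CpG dinucleotides and 4 GC boxes. The Hmga1b window, chr11:120762544-120762843, was 51.3% G or C with 8 CpG dinucleotides, no GC box, 1 AP-1 match and 1 CCAAT match. The Hmga2 window, chr10:120476420-120476719 on the minus strand, was 57.7% G or C with 12 CpG dinucleotides and 1 GC box. Across 27025 promoters of the same length the medians were 52.7% and 7 CpG dinucleotides. A GC box occurred in 35.9% of them, an AP-1 match in 5.17%, a CCAAT match in 37.9%, a TATA box in 14.2% and an E-box in 7.24%. The TATA box and the E-box had 0 matches in the 3 HMGA windows, which says only that these letters are absent there.

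The libraries held 28.7 to 41.9 × 1000000 reads, so that 1 read was worth 0.0231 to 0.0348 CPM, and precision for these genes came from 162 to 1100 reads per library. Chondrocyte markers were present: the summed level of 10 markers was 10773 to 14083 CPM in control, 5722 to 6323 in acetate and 5171 to 6418 in ethanol libraries. Of those 10, 6 passed the test as lower in each treatment, where 0.497% of all genes were called lower with acetate and 2.45% with ethanol. Over 18 alternatives that count ran from 0 (without control replicate 1 or 3) to 9 with acetate and from 4 to 9 with ethanol. Markers of related cells were also high, 5 genes each: fibroblast markers summed to 26116 to 30225 CPM in control, above the chondrocyte sum, osteoblast markers to 7347 to 8570 and hypertrophic chondrocyte markers to 7666 to 9014. The last 2 sums are not separate, since Ibsp is on both lists and had the highest mean level in each. Summed markers of blood, endothelial, epithelial, muscle and fat cells, 5 genes each, reached at most 6.14 CPM in any library, with Myod1 and Myog at 0 throughout. Acetate replicate 2 stood apart: its difference from the mean of the other acetate libraries correlated with transcript GC content across 12741 genes (Pearson r = 0.81, across genes, which are not independent replicates). Differences of the HMGA genes and medians of the gene lists that it moved by over 1.5 times, or across the threshold, are given also without it.

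Hmga1 was higher with both treatments, about 2.43-fold with acetate and 1.82-fold with ethanol as ratios of mean CPM. In control libraries 1, 2 and 3 its level was 11.6, 12.2 and 11.7 CPM. With acetate it was 26.1, 30.6 and 29.8 CPM, and with ethanol 19.1, 22.6 and 23.2 CPM. The 3 groups did not overlap anywhere: every acetate library lay above every ethanol library, and every ethanol library above every control library. The means were 11.8 ± 0.280 CPM in control, 28.8 ± 2.43 in acetate and 21.6 ± 2.23 in ethanol (SD, n = 3).

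**Figure D1:**
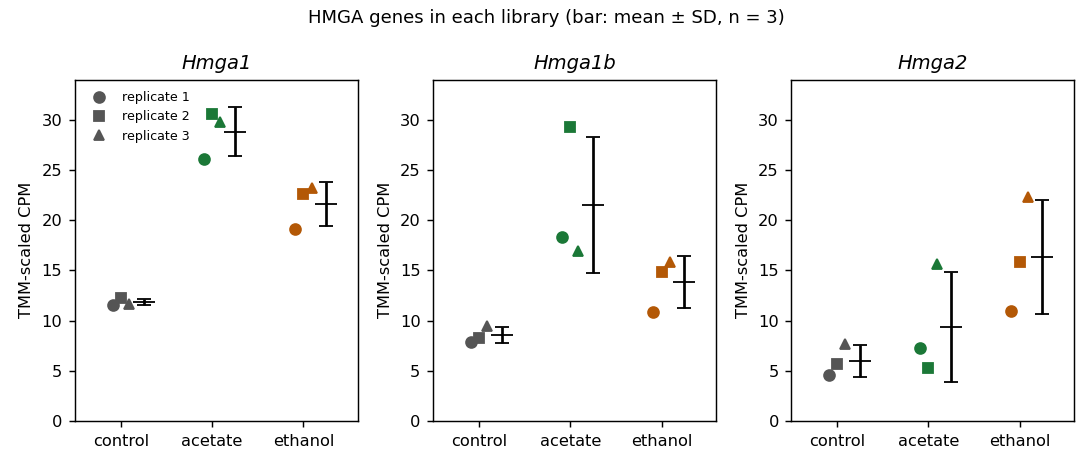
TMM-scaled CPM of Hmga1, Hmga1b and Hmga2 in each library; symbols are libraries by replicate number, and bars are the mean ± SD of 3 libraries. Hmga1 falls into 3 separate groups with acetate highest, whereas Hmga2 is highest with ethanol and its acetate libraries spread from 5.28 to 15.6 CPM.

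On the scale of log2(CPM + 1), which understates the change of low genes, Hmga1 was higher than control by 1.21 ± 0.12 with acetate and by 0.81 ± 0.12 with ethanol (fitted difference ± SE). Among the 12868 genes ordered by that difference from the highest, Hmga1 stood at position 8 for acetate and at position 136 for ethanol. For scale, 0.505% of genes were called higher with acetate and 1.48% with ethanol at an adjusted p under 0.05, and 11.4% and 20.1% had all 3 treated values above all 3 control values. Since Hmga1 was chosen on these contrasts, nothing is read from its place in them. The same 3 control libraries serve both comparisons. In bulk RNA, fewer cells of a kind and less RNA per cell cannot be told apart.

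The difference between the treatments was not used in choosing Hmga1. Acetate libraries exceeded ethanol libraries by 0.40 ± 0.12 on the log2 scale, 1.33-fold in mean CPM, with every acetate value above every ethanol value. The adjusted p was 0.099 (limma, Benjamini-Hochberg over all genes), which missed the threshold, and it ranged from 0.055 to 0.37 over 18 alternative settings. In this contrast 3.73% of genes were called, 2.84% higher and 0.886% lower with acetate, and 15.3% had all acetate values above all ethanol values. Correction for GC content lowered the difference to 0.17 ± 0.12, with an adjusted p of 0.37.

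Hmga1b followed the order of Hmga1, with a wider spread in acetate. Its level was 7.87, 8.28 and 9.41 CPM in control libraries 1, 2 and 3. With acetate it was 18.3, 29.3 and 16.9 CPM, and with ethanol 10.9, 14.8 and 15.8 CPM. Again every acetate library was above every ethanol library and every ethanol library above every control library, separations found in 15.3% and 20.1% of all genes. Acetate replicate 2 was far above the other acetate libraries. The means were 8.52 ± 0.797, 21.5 ± 6.78 and 13.8 ± 2.57 CPM (SD, n = 3), ratios to control of 2.52 with acetate and 1.62 with ethanol. The fitted differences from control were 1.20 ± 0.21 and 0.63 ± 0.21 on the log2 scale, and that for acetate was 0.97 without acetate replicate 2.

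Because the copies share most of their sequence, their levels were also added. The sum of Hmga1 and Hmga1b was 19.5, 20.4 and 21.2 CPM in control, 44.4, 59.9 and 46.7 with acetate, and 30.0, 37.3 and 39.0 with ethanol. The order of the groups was that of Hmga1, with no overlap, and the mean sums stood 1.25 and 0.76 above control on the log2 scale for acetate and ethanol. Hmga1b made up 36.2% to 48.9% of the sum, the highest share being that of acetate replicate 2. How the submitters' processing divided reads that match both loci is not given in the sources used here. Back-calculated reads were whole numbers, within 0.02 read plus 5e-05 of the count, in 2 of 9 libraries for Hmga1, in 1 for Hmga1b and in 1 for Hmga2, against 9 of 9 for each of Igf2bp1, Igf2bp2 and Igf2bp3. In control libraries 1, 2 and 3 the back-calculated reads were 423.450, 349.849 and 462.365 for Hmga1. For Hmga1b they were 286.535, 238.139 and 370.646, so in each of these libraries the fractions of the pair nearly completed a whole read. The levels of Hmga1 and Hmga1b are therefore not taken as independent measurements. Which of the copies gave rise to the reads listed under Hmga1b was not tested.

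Hmga2 had its highest mean with ethanol, whereas Hmga1 and Hmga1b had theirs with acetate. In control libraries 1, 2 and 3 its level was 4.61, 5.64 and 7.71 CPM. With ethanol it was 11.0, 15.8 and 22.3 CPM, and with acetate 7.25, 5.28 and 15.6 CPM. Every ethanol library was above every control library, as in 20.1% of all genes. The acetate libraries overlapped both other groups, with replicate 2 inside the control range and replicate 3 inside the ethanol range. The means were 5.99 ± 1.58 in control, 16.3 ± 5.66 in ethanol and 9.38 ± 5.47 in acetate (SD, n = 3).

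Ethanol exceeded control in Hmga2 level by 1.28 ± 0.36 on the log2 scale, 2.73-fold in mean CPM, and in 3 of 3 libraries. Over all 9 libraries the adjusted p was 0.088 (limma), which missed the threshold that 3.93% of genes passed in this contrast. It ranged from 0.00053 to 0.33 over 18 alternatives. With the replicate number as a block the adjusted p was 0.017, and with the 6 ethanol and control libraries alone it was 0.0036. It was 0.013 without acetate replicate 2 and 0.034 without acetate replicate 3, libraries that enter this contrast only through the shared spread. Without control replicate 1 it was 0.33. Of the 12868 genes, 1074 were called with the block and 3443 with the 6 libraries. Without acetate replicate 2 or 3 there were 2766 and 518. The lowest adjusted p, 0.00053, came with the block and GC correction, where 4622 were called. The fitted difference itself stayed between 1.05 and 1.52 when any 1 library was left out.

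The replicate numbers went with the Hmga2 level. In control and ethanol alike, replicate 1 was lowest and replicate 3 highest, and the ratio of ethanol to control for the same number was 2.39, 2.80 and 2.89. The corresponding ratios of acetate to control were 1.57, 0.937 and 2.02, so that acetate replicate 2 alone was below its control. For Hmga1 the same-number ratios were 2.24, 2.52 and 2.54 with acetate and 1.64, 1.85 and 1.98 with ethanol.

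**Figure D2:**
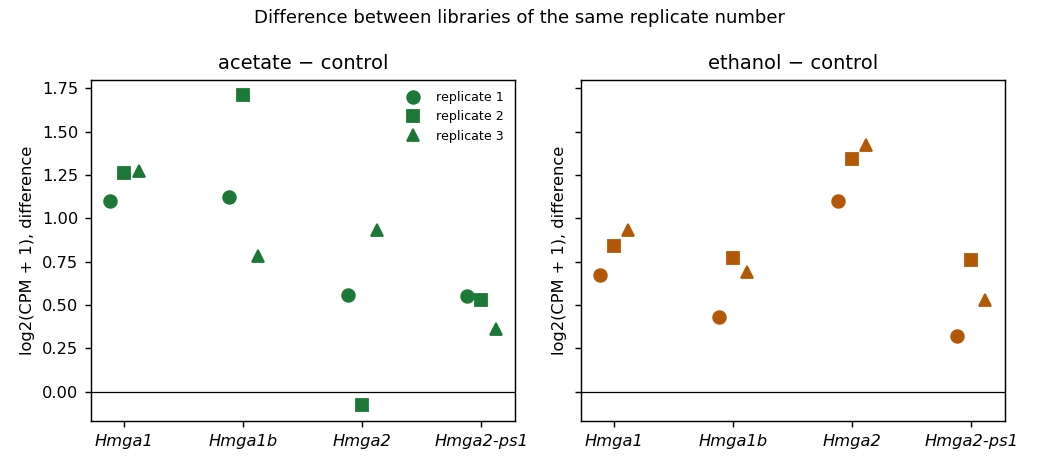
Difference in log2(CPM + 1) between treated and control libraries of the same replicate number, for the 3 HMGA genes and for Hmga2-ps1, a transcribed pseudogene; symbols give the replicate number. Hmga2 lies between 1.10 and 1.42 with ethanol but between -0.08 and 0.93 with acetate.

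With acetate, Hmga2 differed from control by 0.47 ± 0.36 on the log2 scale with an adjusted p of 0.50 (limma), where 1.00% of genes were called. The difference was 0.07 without acetate replicate 3 and 0.77 without acetate replicate 2, neither past the threshold. Of all settings, the replicate block together with GC correction put it past the threshold, at 0.60 with an adjusted p of 0.019. In that setting 2253 of 12868 genes were called, and acetate and control libraries did not meet the pairing it assumes. Directly compared, acetate was below ethanol by 0.81 ± 0.36 (difference -0.81, adjusted p = 0.24), with the groups overlapping. That contrast passed without acetate replicate 3 (-1.22, adjusted p = 0.049), where 705 of 12868 genes were called. It also passed with the block and GC correction (-0.67, adjusted p = 0.0084), where 3921 were called. Without acetate replicate 2 the difference was -0.52 and did not pass. Whether the unlike orders of Hmga1 and Hmga2 across the treatments differ from each other was not tested.

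The transcripts differ in base composition, 61.4% G or C in the longest annotated transcript of Hmga1, 58.5% in Hmga1b and 45.7% in Hmga2. Acetate replicate 2 differed from the other acetate libraries by 0.70 in Hmga1b and by -0.90 in Hmga2 on the log2 scale, beside medians of 0.46 and -0.47 for genes within 1 percentage point of the same GC content. In Hmga1 it differed by 0.13, beside a median of 0.52. After GC correction the log2 level of Hmga1 was 4.49 in acetate replicate 2 and 4.81 and 4.95 in acetate replicates 1 and 3. It was 3.69 to 3.82 in control and 4.42 to 4.71 in ethanol, so control remained separate while acetate and ethanol overlapped. The corrected Hmga2 levels were 2.45 to 3.04 in control, 2.95 to 4.02 in acetate and 3.57 to 4.46 in ethanol.

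**Figure D3:**
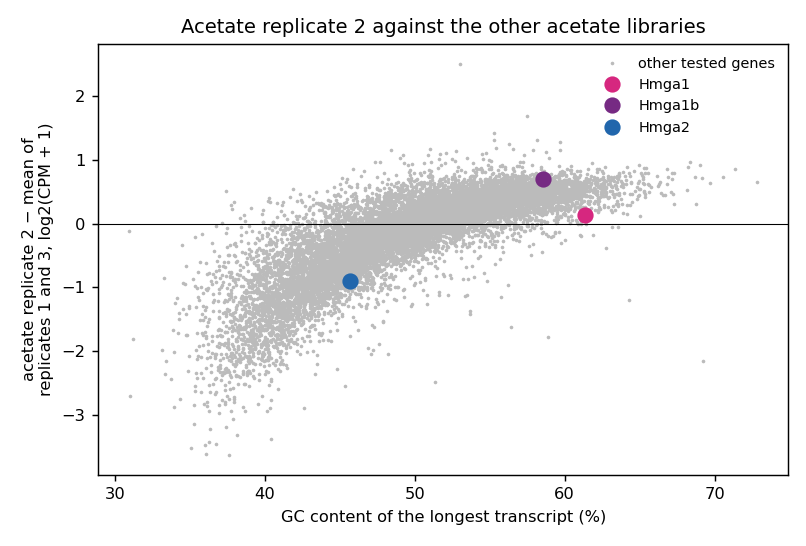
Difference of acetate replicate 2 from the mean of acetate replicates 1 and 3 in log2(CPM + 1), against the GC content of each gene's longest transcript; grey points are the other tested genes. Hmga1b at 0.70 and Hmga2 at -0.90 lie in the direction of genes of like GC content, and Hmga1 lies at 0.13.

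Per kilobase of the longest transcript, Hmga1 stood at 5.82 to 6.08 CPM in control libraries, Hmga1b at 4.84 to 5.79 and Hmga2 at 1.21 to 2.02. Control levels of Hmga1 and Hmga1b per kilobase were therefore close but did not overlap, and Hmga2 was below both. In ethanol libraries the ranges were 9.53 to 11.6 for Hmga1, 6.72 to 9.71 for Hmga1b and 2.89 to 5.84 for Hmga2. In acetate libraries they were 13.0 to 15.3, 10.4 to 18.0 and 1.39 to 4.09, so that the ranges of Hmga1 and Hmga1b overlapped in both treated groups. The length used for Hmga1 was 2001 bases, that of Hmga1-213, whereas Hmga1-201 has 1631 and Hmga1b-201 has 1626. A shorter transcript would place Hmga1 higher per kilobase, so its closeness to and overlap with Hmga1b depend on the transcript chosen.

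Hmga2-ps1, which RefSeq lists as a transcribed pseudogene of Hmga2 on another chromosome, was low. Its level was 1.77, 1.84 and 2.15 CPM in control, 3.05, 3.10 and 3.05 with acetate, and 2.47, 3.82 and 3.53 with ethanol. All treated libraries lay above all control libraries, as in 11.4% of all genes with acetate and 20.1% with ethanol, each taken separately. The differences were 0.48 with acetate (adjusted p = 0.15, limma) and 0.54 with ethanol (adjusted p = 0.067), neither past the threshold. With the replicate block the ethanol difference passed (adjusted p = 0.043), where 1074 of 12868 genes did. Back-calculated reads of Hmga2-ps1 were whole numbers in 1 of 9 libraries, as were those of Hmga2. The sequence of Hmga2-ps1 was not used here, and whether it shares reads with Hmga2 was not tested.

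The other high mobility group genes were compared next. HMGB proteins bend DNA through HMG boxes and HMGN proteins bind nucleosomes. None of the 7 expressed HMGB and HMGN genes passed the test against control in either treatment by limma or by voom. At an unadjusted p under 0.05 there were 1 with acetate (Hmgn2) and 2 with ethanol (Hmgb3 and Hmgn2), where 14.6% and 19.0% of all genes were that low. Without acetate replicate 2, Hmgn2 passed as lower with acetate, where 448 of 12868 genes were called in either direction. Hmgb3 and Hmgn2 then passed as higher with ethanol, where 2766 were called. The median log2 difference of the 7 genes from control was -0.27 with acetate and 0.12 with ethanol, beside -0.01 and -0.00 over all genes tested. The acetate median was -0.05 without acetate replicate 2. Hmgb1 was at 102 to 111 CPM in control, 33.9 to 109 in acetate and 107 to 108 in ethanol libraries, and Hmgb2 at 143 to 178, 108 to 172 and 168 to 185.

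Between the treatments 1 of the 7, Hmgn2, passed: acetate libraries were at 85.1, 53.9 and 72.6 CPM and ethanol libraries at 141, 150 and 139, with control between them at 117, 105 and 108. The difference was -1.04 ± 0.16 (adjusted p = 0.0096, limma), and it missed the threshold in 2 of 18 alternatives, with adjusted p from 0.00066 to 0.059. Of all genes, 3.73% were called in this contrast. Hmga2 and Hmgn2 thus both had their highest mean with ethanol, as did Hmgb1, Hmgb2, Hmgb3, Hmgn1 and Hmgn3, but not Hmgn5. The share of all genes with their highest mean in ethanol was not counted, so nothing is read from this. Mean Hmgb1 was 107 CPM with ethanol and 106 in control, and ethanol and control libraries overlapped in Hmgb1, Hmgb2, Hmgn1 and Hmgn3. In each of these genes acetate replicate 2 was the lowest acetate library. Hmgb3, named after its values were seen, was at 20.9 to 25.2 CPM in control, 12.3 to 26.0 with acetate and 36.1 to 41.8 with ethanol. Its difference from control with ethanol was 0.78 ± 0.24 (adjusted p = 0.11, past the threshold in 4 of 18 alternatives). Between the treatments Hmgb3 missed the threshold in the main fit (-0.99, adjusted p = 0.052, limma) and in 11 of 18 alternatives. Among the settings in which it passed was the replicate block (-0.99, adjusted p = 0.041), where 823 of 12868 genes did. The 3 expressed linker histone H1 genes, which compete with HMGA proteins for linker DNA, included none past the threshold in any contrast by limma or voom, and 1, H1f10 with acetate, at an unadjusted p under 0.05, with medians of 0.21 with acetate (0.08 without acetate replicate 2) and -0.05 with ethanol against control.

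**Figure D4:**
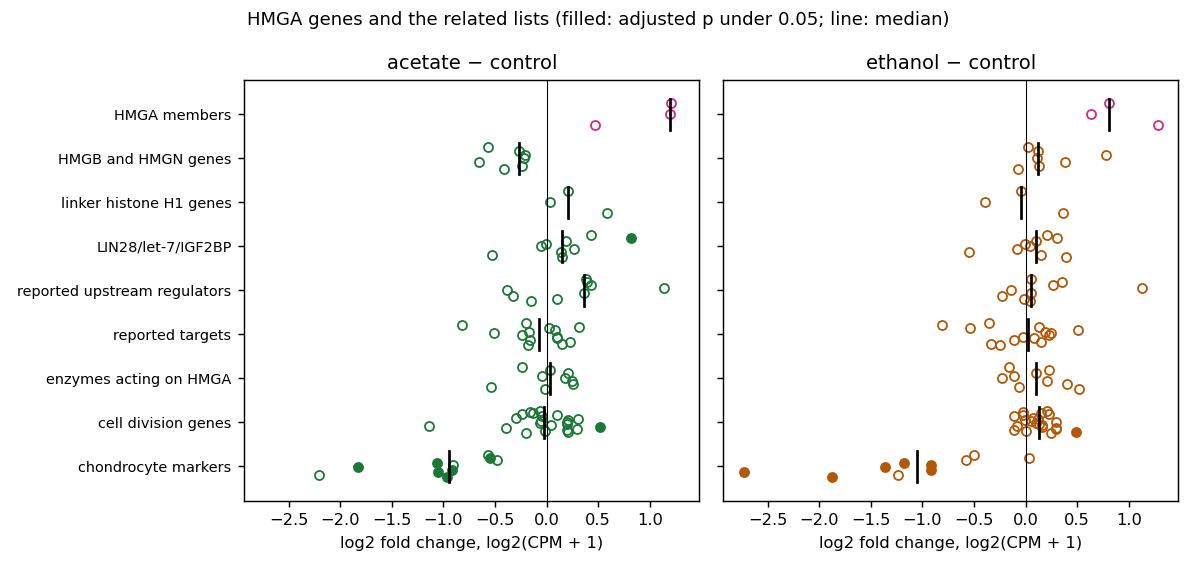
Fitted log2 difference from control for the 3 HMGA genes (top row) and the members of each related list, with acetate on the left and ethanol on the right; filled points passed an adjusted p under 0.05, open points did not or, for Hmga1 and Hmga1b, carry no test, and the vertical line is the median. The list medians lie near 0 except for reported upstream regulators with acetate (0.36), HMGB and HMGN genes and linker histone H1 genes with acetate (-0.27 and 0.21) and the chondrocyte markers (-0.95 and -1.05); without acetate replicate 2 the first 3 of these are 0.20, -0.05 and 0.08.

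In the LIN28, let-7 and IGF2BP axis, 9 genes were expressed. Of all genes, 1.00% passed against control with acetate and 3.93% with ethanol, and of these 9 genes 1 passed, with acetate. This was Igf2bp2, an RNA-binding protein gene that HMGA2 is known to activate in mouse muscle precursors. Igf2bp2 was at 18.1, 20.1 and 15.7 CPM in control, 33.9, 33.9 and 29.5 with acetate, and 21.2, 26.3 and 19.7 with ethanol. Acetate libraries all lay above the other 2 groups, which overlapped, an order unlike that of Hmga2. Over all genes, 11.4% had all acetate values above control and 15.3% above ethanol. The difference was 0.82 ± 0.14 with acetate (adjusted p = 0.035, limma), lost in 10 of 18 alternatives, and 0.30 with ethanol (adjusted p = 0.29).

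Igf2bp1, the paralogue with 4 let-7 seed matches, was at 25.2 to 31.8 CPM in control, 34.6 to 39.8 in acetate and 29.7 to 34.6 in ethanol, and did not pass in any contrast. Igf2bp3 was at 3.20 to 3.33, 2.41 to 5.15 and 2.52 to 4.64 CPM. Lin28a was listed at 0 in 8 of 9 libraries and Lin28b did not exceed 0.0696 CPM, so neither was tested. Arid3b, which encodes an AT-rich DNA-binding protein, was higher with acetate than with ethanol by 0.69 ± 0.15 (adjusted p = 0.041, lost in 11 of 18 alternatives). In that contrast 3.73% of all genes were called. With the replicate block Tut7 passed as higher (adjusted p = 0.049) and Arid3b as lower (adjusted p = 0.035) with ethanol than in control, where 1074 of 12868 genes were called. Igf2bp2 then passed as higher with acetate than with ethanol, where 823 were called. The list's medians were 0.15 with acetate and 0.10 with ethanol.

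The 8 expressed genes with at least 4 let-7 seed matches were picked by sequence after the data had been seen, and are given as values. Besides Hmga2 and Igf2bp1 they were D10Wsu102e, Hic2, Mcf2l, Nr6a1, Trim6 and Zbtb37. None of the 8 passed in any contrast in the fit over all 9 libraries or by voom, and 3 in each contrast had an unadjusted p under 0.05, as had 14.6% of all genes with acetate, 19.0% with ethanol and 21.1% between the treatments. With the replicate block, where 1074 of 12868 genes were called, Hmga2 and Mcf2l passed with ethanol. Without acetate replicate 2, where 2766 were called, D10Wsu102e passed with them. Among the 8, log2 differences from control with ethanol ran from -0.33 in Zbtb37 to 1.28 in Hmga2, with Mcf2l next at 0.54. Nr6a1, with 8 matches, was at -0.10.

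Of 9 expressed genes reported as upstream regulators of HMGA genes, none passed in any contrast by limma or voom, while 6 with acetate and 2 with ethanol differed from control at an unadjusted p under 0.05, beside 14.6% and 19.0% of all genes. The list's median was 0.36 with acetate, 0.20 without acetate replicate 2, and 0.05 with ethanol. Without that library Tgfb1 passed as lower with both treatments, and Jun and Fosl1 as higher with ethanol. In that setting 448 of 12868 genes were called with acetate and 2766 with ethanol. Fosl1, an AP-1 subunit, had a large difference with a wide spread: it was at 5.43, 5.85 and 9.19 CPM in control, 10.7, 17.0 and 21.7 with acetate, and 12.5, 14.1 and 21.9 with ethanol. All treated libraries lay above all control libraries, as in 11.4% of all genes with acetate and 20.1% with ethanol, each taken separately. The differences were 1.14 ± 0.29 with acetate (adjusted p = 0.11, limma) and 1.13 ± 0.29 with ethanol (adjusted p = 0.065). With the replicate block both passed, at 0.014 and 0.0042, where 293 and 1074 of 12868 genes were called. Acetate and control libraries did not meet the pairing that the block assumes. Fosl1 lies outside the rule for named genes and was picked after its values were seen. Myc was at 207 to 212 CPM in control, 244 to 321 with acetate and 214 to 222 with ethanol, differences of 0.38 (adjusted p = 0.19) and 0.05 (adjusted p = 0.90).

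Among 14 expressed genes reported as targets of HMGA proteins, none passed against control by limma or voom, 2 with acetate and 4 with ethanol had an unadjusted p under 0.05 (14.6% and 19.0% of all genes), and the medians were -0.07 with acetate and 0.03 with ethanol. Mmp2, a matrix metalloproteinase gene, passed between the treatments, where 3.73% of all genes were called. It was at 740, 818 and 606 CPM with acetate and 488, 501 and 468 with ethanol, a difference of 0.56 ± 0.13 (adjusted p = 0.044, lost in 10 of 18 alternatives). Against control, the replicate block put Mmp9 as higher (adjusted p = 0.043) and Mmp2 as lower (adjusted p = 0.036) with ethanol, where 1074 of 12868 genes were called. Without acetate replicate 2, where 2766 were called, Insr and Ptgs2 also passed as lower with ethanol. The 9 expressed genes for enzymes reported to modify HMGA proteins included none past the threshold by limma or voom and 2 in each contrast at an unadjusted p under 0.05, with medians of 0.03 (0.10 without acetate replicate 2) and 0.10 against control. With the replicate block Ep300, an acetyltransferase gene, passed as higher with ethanol than in control (adjusted p = 0.023) and than with acetate (adjusted p = 0.023). In those contrasts 1074 and 823 genes were called with the block. Without acetate replicate 2, Csnk2a2, Ep300 and Prmt6 passed as higher with ethanol, where 2766 genes were called.

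HMGA levels are known to go with cell division, so 22 cell division genes were examined. With acetate, 1 passed as higher, Ccnd1, which encodes cyclin D1, at 0.52 ± 0.10 (adjusted p = 0.048). With ethanol, 1 passed as higher, Tyms, which encodes thymidylate synthase, at 0.49 ± 0.11 (adjusted p = 0.043). The calls of Ccnd1 and Tyms were lost in 11 and 7 of 18 alternatives. Over all genes, 0.505% were called higher with acetate and 1.48% with ethanol. Without acetate replicate 2 the list had 4 calls with ethanol, all higher, where 1309 of 12868 genes were called higher. The list medians were -0.03 with acetate (0.09 without acetate replicate 2) and 0.12 with ethanol.

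Over the 9 libraries, the genes whose log2 level was most like that of Hmga1 by Pearson r, among the 10932 genes whose mean level reached 5 CPM, were Arnt2 (0.975), Csf1 (0.969), Aunip (0.964), Cgnl1 (0.960), Tars (0.955), Ubap1, Synj2 and Zcchc24 (each 0.951). Arnt2, a partner subunit of bHLH-PAS transcription factors, was at 35.5 to 36.8 CPM in control, 59.1 to 70.4 with acetate and 44.4 to 51.0 with ethanol. Csf1, the macrophage colony-stimulating factor gene, was at 88.6 to 94.3, 146 to 211 and 135 to 144 CPM. Both had the order of Hmga1, with no overlap between groups, but they were picked for likeness to it, so nothing is read from that order. Of all genes, 11.4% had all acetate values above control, 20.1% all ethanol values above control and 15.3% all acetate values above ethanol.

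The genes most like Hmga2 were Sprtn (0.987), Ino80 (0.984), Ddx21 (0.982), Pcdh7 (0.980) and Abl2 (0.976). Pcdh7, a protocadherin gene, was at 5.19, 5.53 and 7.16 CPM in control, 7.98, 5.09 and 10.6 with acetate, and 8.97, 11.2 and 13.2 with ethanol, the same spread by replicate number as Hmga2. Hmga1 had an r of 0.926 with Hmga1b, whose level is not an independent measurement. With Hmga2 its r was 0.452, or 0.727 over the 8 libraries without acetate replicate 2. The order of the most like genes also depended on that library: without it Arnt2 and Csf1 held positions 2 and 3 for Hmga1 and the other 6 fell to positions 17 to 35, and for Hmga2 the 5 genes held positions 4 to 45. The points share their libraries and groups, so these values describe likeness and carry no p.

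At the Hmga1 locus, 3 genes within 100 kb were expressed, and none passed in any contrast by limma or voom. At an unadjusted p under 0.05 there were 0 with acetate, 1 with ethanol (Rps10) and 2 between the treatments, beside 14.6%, 19.0% and 21.1% of all genes. With the replicate block AI413582 was higher with acetate than with ethanol (adjusted p = 0.040), where 823 of 12868 genes were called. Without acetate replicate 2 Rps10 was lower with ethanol than in control (adjusted p = 0.049), where 2766 were called. AI413582, which overlaps the 3′ end of Hmga1 on the opposite strand, was at 7.54 to 9.35 CPM in control, 8.26 to 16.2 with acetate and 6.07 to 8.13 with ethanol. Its differences from control were 0.45 (adjusted p = 0.36; 0.22 without acetate replicate 2) and -0.19 (adjusted p = 0.70). Nudt3 differed from control by 0.12 with acetate (-0.04 without acetate replicate 2) and 0.01 with ethanol, and Rps10 by 0.09 (-0.14 without it) and -0.56. Hmga2 had no expressed neighbour within 100 kb.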

How the data were processed

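The authors deposited log2 values per gene, normalised by TMM (trimmed mean of M values), for 26202 genes in 9 libraries. Per the labels' protocols, total RNA was extracted with a phenol reagent and libraries were made with a stranded mRNA kit. Per the submitters' processing notes, Partek, STAR 2.7.8a, Bowtie2 2.2.5 and mm10 were named, without their roles; the counting method is not given in the sources used here. Each library's lowest deposited log2 value matched an offset of 1e-05 read, which was removed to give CPM. Of low values, 85.6% to 87.2% were then whole reads within 0.02 read, so the values were not treated as counts.

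The 12868 genes whose mean reached 1 CPM were tested with limma 3.58.1 (R 4.3.3) on log2(CPM + 1), with 1 mean per group, a mean-dependent prior, all 9 libraries and Benjamini-Hochberg adjustment, called at an adjusted p under 0.05. The fit was checked on simulated data with known changes. The 3 control, 3 acetate and 3 ethanol libraries were grouped by title. Sequences and GC content came from GENCODE M21 and RefSeq, both GRCm38, the same assembly as mm10. Symbols matched for 24919 genes and synonyms for 416, and 867 were unmatched.

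The members, lists and tests were chosen with earlier results of these data known. Named genes were the members, up to 4 called members per list and contrast, set members of the let-7 and HMGB lists and Myc, the 8 and 5 genes most like Hmga1 and Hmga2, and neighbours within 100 kb. Same-numbered libraries deviated together in ethanol and control (r = 0.554, 0.363 and 0.667) and in acetate and ethanol (0.150, 0.251 and 0.615), each above 0.1. The main fit was nevertheless unpaired in every contrast, and pairing entered only through the replicate block, given as an alternative. For acetate and control r was 0.245, -0.101 and 0.408, so pairing was not met there. Block results for that contrast rest on a pairing these values do not show. Alternatives were a pseudocount of 0.1, no filter, 2 other scalings, the block, the libraries of 1 contrast alone, GC correction by lowess (span 0.3), voom on recovered reads and each library left out.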

Additional observations from a re-analysis of the deposited data

How the results depend on the processing

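The higher level of Hmga1 kept its direction under all 18 alternatives in both treatments, at 1.17 to 1.28 with acetate and 0.76 to 0.89 with ethanol when 1 library was left out. Since Hmga1 was chosen for this rise, the kept direction adds no support. With groups that do not overlap, leaving out 1 library could not have reversed it. GC correction, alone and with the replicate block, moved the acetate difference to 1.00. Hmga1b ranged from 0.97 to 1.35 and from 0.53 to 0.78 without 1 library, and the sum of both copies from 1.12 to 1.34 and from 0.69 to 0.87.

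For Hmga2, ethanol minus control passed with the replicate block (1.28, adjusted p = 0.017), with only the 6 libraries compared (1.28), with GC correction (1.27, adjusted p = 0.023), with both (1.27, adjusted p = 0.00053), and without acetate replicate 2 or 3 (1.28 each); without any 1 library it was 1.05 to 1.52. Acetate minus control passed with the block and GC correction (0.60), and was 0.07 to 0.77 without 1 library. Acetate minus ethanol passed with the block and GC correction (-0.67) and without acetate replicate 3, and was -1.22 to -0.52 without 1 library. The cause was not tested.

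Counts of genes called depended on the setting. For acetate against control, 129 became 293 with the replicate block, 20 with only the 6 libraries compared, 650 with GC correction and 2253 with both; without 1 library they were 0 to 448. The 0 (limma, without control replicate 3) stood beside 1720 genes at an unadjusted p under 0.05. For ethanol against control, 506 became 1074, 3443, 2045 and 4622, and 98 to 2766. For acetate against ethanol, 480 became 823, 107, 1426 and 3921, and 103 to 1108. The 448, 2766 and 1108 were all without acetate replicate 2. Same-numbered pairing is a choice for acetate against control, where it is not met. A block without acetate replicate 2, tried after seeing the data, gave an unbounded prior and was not used. With 3 libraries a group and 162 to 1100 reads per HMGA gene and library, differences as small as the spread between libraries were not detectable.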
